A study of Caenorhabditis elegans with 8 samples.

Results

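The genes described here are *snet-1*, which encodes a secreted peptide, and *nep-1* and *nep-2*, which encode neprilysins. They are 3 of the 19794 genes that could be assigned a probe on the array. *snet-1* was taken because its signal was lower in *aptf-1* mutants, so its difference between the genotypes is given as a description, with nothing read from a test. *nep-1* and *nep-2* were taken by name, as neprilysin genes. RNA was measured in whole pretzel-stage embryos, late embryos folded inside the eggshell, of hermaphrodite strains. *aptf-1(gk794)*, which carries a mutation in the gene for an AP-2 transcription factor on chromosome II and had been backcrossed to N2, was compared with the wild-type strain N2, with 4 samples per genotype and about 3000 hand-picked embryos per sample. Each sample was hybridised to 1 single-colour Agilent array. There were 2 slides, and both genotypes had 2 arrays on either.

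Neprilysins are zinc metallopeptidases that sit at the cell surface or are secreted, and they cut small peptides outside the cell. In this way they end the action of peptide signals. In mammals, neprilysin degrades peptides such as enkephalins and amyloid beta. *C. elegans* has a large family of such genes. NEP-2 is required for olfactory plasticity of the adult, the lasting drop in attraction to an odour after long exposure, and the peptide SNET-1 is named as the signal on which NEP-2 acts. SNET-1 holds this plasticity back, and loss of *snet-1* restores it in *nep-2* mutants. Ascaroside pheromones are known to lower *snet-1* expression. *nep-1* has been studied for its role in pharyngeal pumping and locomotion. APTF-1, the factor mutated here, is required in the sleep-active neuron RIS for sleep behaviour.

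Each of the 3 genes had a single probe with 1 spot per array. The array design names the *snet-1* probe A_12_P108532 by the transcript C02F12.3.2, the *nep-1* probe A_12_P116390 by the accession of ZK20.6, and the *nep-2* probe A_12_P118659 by that of T05A8.4. In the WBcel235 gene table, *snet-1* lies on chromosome X, while *nep-1* and *nep-2* lie on chromosome II, as *aptf-1* does. Where along the transcripts the probes lie was not analysed here. *snet-1* and *nep-1* overlap no other gene in that table. *nep-2* overlaps 2 other protein-coding genes there, *nlp-99* and T05A8.11, and whether its probe lies in a shared stretch was not tested. All 3 probes were well above background on 4 of 4 mutant and 4 of 4 wild-type arrays, with no spot saturated and 0 spots marked as outliers. The median signal of the spot was 113 to 343 times the local background for *snet-1*, 94.1 to 203 times for *nep-1* and 21.5 to 48.6 times for *nep-2*. Values below are log2 intensities relative to the 75th percentile of the same array. They serve to compare arrays for 1 probe, since levels of different probes are not comparable.

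On each array 79.4% to 83.1% of the probes were well above background, and the 75th percentile of the intensity, to which the values are scaled, was 2283 to 3713. Expression of *aptf-1* itself was -1.55 ± 0.19 (SD, n = 4) in mutants and 0.51 ± 0.22 (SD, n = 4) in the wild type, a log2 difference of -2.06 (standard error 0.15, adjusted p = 0.00276 from limma), so the arrays carried the genotype on their labels. Markers of neurons, muscle, pharynx, epidermis and intestine were above background on every array. The vitellogenin genes *vit-2*, *vit-5* and *vit-6*, whose RNA belongs to the adult mother, were dim on average, at a mean level of -6.44 to -5.74 in mutants and -6.39 to -5.91 in the wild type. *vit-5* and *vit-6* were still well above background on 4 of 4 arrays of each genotype by their best probe. *vit-2* was so on 3 mutant and 1 wild-type arrays.

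The signal of *snet-1*, the peptide gene, was about 2 times lower in *aptf-1* mutant embryos. In the wild type its log2 values were 1.86, 1.48, 1.73 and 1.81 in replicates 1 to 4. In *aptf-1* mutants they were 0.94, 0.67, 0.41 and 0.81. The genotypes were fully apart, with the highest mutant value, that of replicate 1, 0.54 below the lowest wild-type value, that of replicate 2. Among all genes tested, 1.38% had genotypes apart with the mutant lower. The mean was 0.71 ± 0.23 (SD, n = 4) in mutants and 1.72 ± 0.17 (SD, n = 4) in the wild type. This gave a log2 difference of -1.01 (standard error 0.14), or 49.5% of the wild-type signal, which was larger than the spread between replicates of either genotype. The genotypes also stood apart before any scaling: the scanner's processed intensity was 4359 to 5909 in mutants and 8808 to 12342 in the wild type. Taken by slide, it was -0.86 (slide 1) and -1.16 (slide 2). Among the 35739 probes tested over the whole array, the difference ranked 64th from the lowest. This rank and the separation of the genotypes are only descriptions, since *snet-1* was chosen by this contrast. As whole embryos were used, fewer cells that express *snet-1* and less *snet-1* RNA per cell cannot be told apart.

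**Figure D1:**
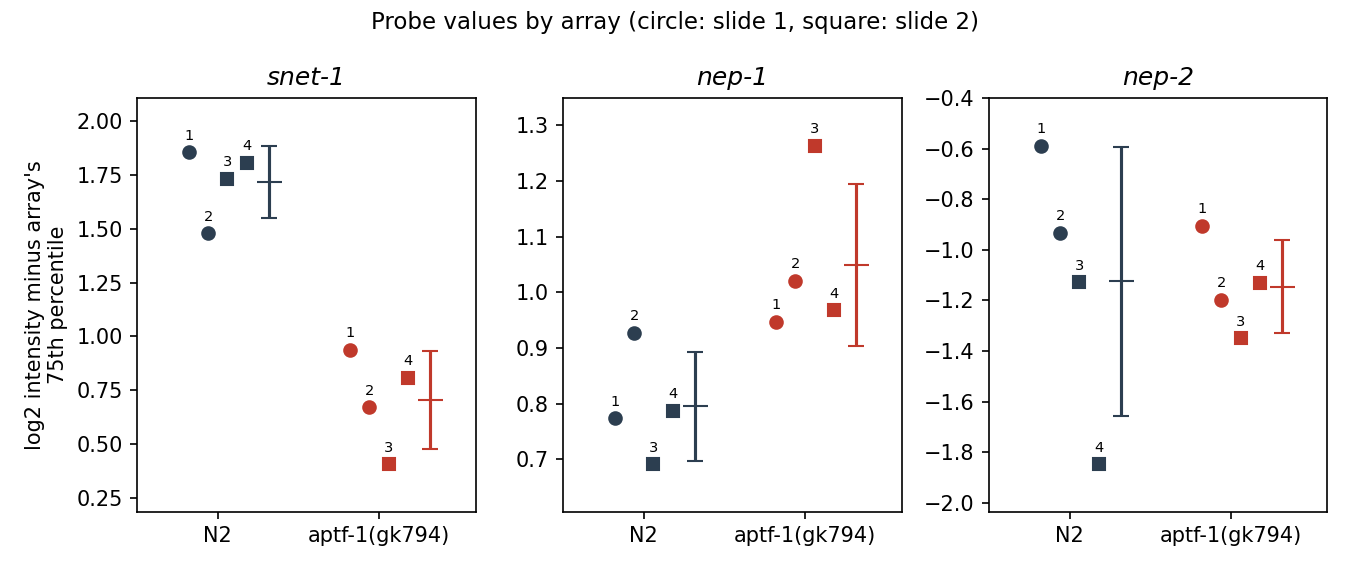
Log2 intensity of the single probe of *snet-1*, *nep-1* and *nep-2* on each array, relative to the 75th percentile of that array, for N2 (dark) and *aptf-1(gk794)* (red). Circles are arrays of slide 1 and squares of slide 2, small numbers are replicates, and the bars show mean and SD of 4 arrays; each panel has its own axis, which does not start at 0. The genotypes stand 0.54 apart for *snet-1* and 0.021 apart for *nep-1*, and overlap for *nep-2*.

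General markers of neurons stood at like levels in both genotypes. Of the 8 genes fixed as such markers, among them the synaptic vesicle genes *rab-3* and *snb-1*, 8 were above background on every array. Their mean level was 0.83 to 0.88 in mutants and 0.81 to 0.87 in the wild type, with differences of single genes from -0.083 to 0.057. Of them, 0 passed limma's test or had an unadjusted p under 0.05, against 0.041% and 3.25% of all genes. These markers are of neurons in general, and a change in a small number of neurons was not tested. The genes next to *snet-1* on chromosome X had differences of 0.31 (R11G1.1, standard error 0.19) and -0.21 (C02F12.5, standard error 0.19), and neither passed (adjusted p = 0.9997 for both, limma).

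The signal of *nep-2*, the peptidase tied to SNET-1, was at a like mean in both genotypes but spread widely in the wild type. Its log2 values were -0.59, -0.93, -1.13 and -1.85 in wild-type replicates 1 to 4 and -0.91, -1.20, -1.35 and -1.13 in mutant replicates 1 to 4. All 4 mutant arrays lay inside the wild-type range, with wild-type replicate 1 the highest and wild-type replicate 4 the lowest of all 8. The mean was -1.15 ± 0.18 (SD, n = 4) in mutants and -1.12 ± 0.53 (SD, n = 4) in the wild type. The log2 difference was -0.022 (standard error 0.25), with an adjusted p = 0.9997 from limma. The 95% interval of that difference, from -0.58 to 0.54, covers 66.9% to 145% of the wild-type signal, and changes of that size in either direction are not excluded by these 4 arrays per genotype. Permuting the genotype labels over the arrays in all 70 ways gave an exact two-sided p = 0.914. On slide 1 the difference was -0.29 and on slide 2 it was 0.25. Without wild-type replicate 4 it was -0.26, and without wild-type replicate 1 it was 0.16, so its sign rested on single arrays. The spread of *nep-2* within genotypes (pooled SD 0.40) was larger than that of 80.1% of the probes tested, against a median SD of 0.23. *nlp-99*, the neuropeptide-like gene that overlaps *nep-2*, had a difference of -0.13 (standard error 0.096, adjusted p = 0.9997 from limma).

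*nep-1*, the other neprilysin of the set, had slightly higher values in mutants. They were 0.77, 0.93, 0.69 and 0.79 in wild-type replicates 1 to 4 and 0.95, 1.02, 1.26 and 0.97 in mutant replicates 1 to 4. Each mutant array lay above each wild-type array, but by only 0.021 between the nearest, mutant replicate 1 and wild-type replicate 2. The mean was 1.05 ± 0.15 (SD, n = 4) in mutants and 0.80 ± 0.098 (SD, n = 4) in the wild type. The log2 difference of 0.25 (standard error 0.10) had a 95% interval from 0.021 to 0.49, or 101% to 140% of the wild-type signal. It did not pass over all genes (adjusted p = 0.9997 from limma, unadjusted p = 0.0361). The exact permutation test, two-sided, gave p = 0.0286, the smallest that 4 against 4 arrays allow. Groups that do not overlap, with the mutant higher, were seen for 0.721% of all genes tested. Within slides it was 0.13 (slide 1) and 0.38 (slide 2), and mutant replicate 3 held the highest value. Before scaling the genotypes overlapped, with processed intensities of 4403 to 7897 in mutants and 4158 to 6934 in the wild type. The neighbours of *nep-1*, *rpn-12* and *trr-1*, differed by 0.046 and 0.027 (standard errors 0.15 and 0.12).

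Epidermal markers were also higher on average in the mutants, with overlapping arrays. The mean level of the 4 genes (*dpy-7*, *elt-1*, *lin-26* and *elt-3*) was 0.31 to 0.72 in mutants and 0.0058 to 0.40 in the wild type. All 4 had differences above 0, from 0.10 to 0.33. The highest was that of the cuticle collagen gene *dpy-7* and came from its 1 probe without an outlier-marked spot, while its other probe differed by 0.064. Of the 4 genes, 0 passed limma's test or had an unadjusted p under 0.05, against 0.041% and 3.25% of all genes. Mutant replicate 3, the array with the most *nep-1* signal, had the highest level of this list too. Wild-type replicate 4, the array with the least *nep-2* signal, had the lowest. On mutant replicate 3, however, *nep-2* was at -1.35, its 2nd lowest value of the 8 arrays. The pharynx and intestine lists were highest on mutant replicate 3 as well, at 1.14 and 0.93, while their mean levels differed by 0.036 and 0.0092 between genotypes. Germ line markers (2 genes measured on every array) were higher in mutants by 0.17 and the vitellogenin genes by 0.18 on average, both with overlapping arrays. Single genes of these lists differed in sign. In the germ line list *pgl-1* was at 0.12 and the dim *nos-2* at 0.22, while *glh-1*, not part of that level, was at -0.085. Of the vitellogenin genes, *vit-6* was at 0.13 and *vit-5* at -0.066. *vit-2* was at 0.46 but above background on only 3 mutant and 1 wild-type arrays. The part of these cells in the values of *nep-1* and *nep-2* was not tested.

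A probe was called where limma's adjusted p was under 0.05 and the signal differed at least 1.5-fold. Of the 3 member probes 0 were called, against 0.0504% of the probes on the whole array. Of *nep-1* and *nep-2*, 1 had an unadjusted p under 0.05 in limma, as had 3.25% of all genes. With a trended and robust variance fit in limma, 1 member probe, that of *snet-1*, was called, beside 0.056% of all probes. Since *snet-1* was chosen by this contrast, nothing is read from that call.

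Within an array, the ratio of *snet-1* to a neprilysin gene is free of the scaling. The log2 ratio of *snet-1* to *nep-2* was 1.76 to 1.94 in mutants and 2.41 to 3.66 in the wild type. Its SD was 0.075 in mutants and 0.58 in the wild type, where *nep-2* varied most. The log2 ratio of *snet-1* to *nep-1* was -0.86 to -0.0088 in mutants and 0.55 to 1.08 in the wild type, a change of -1.27. Only the change of such a ratio can be read, as its size depends on the probes, and the change follows from the choice of *snet-1*. The ratio of *nep-1* to *nep-2*, which that choice does not touch, was 2.20 ± 0.32 (SD, n = 4) in mutants and 1.92 ± 0.53 (SD, n = 4) in the wild type, with overlapping arrays.

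**Figure D2:**
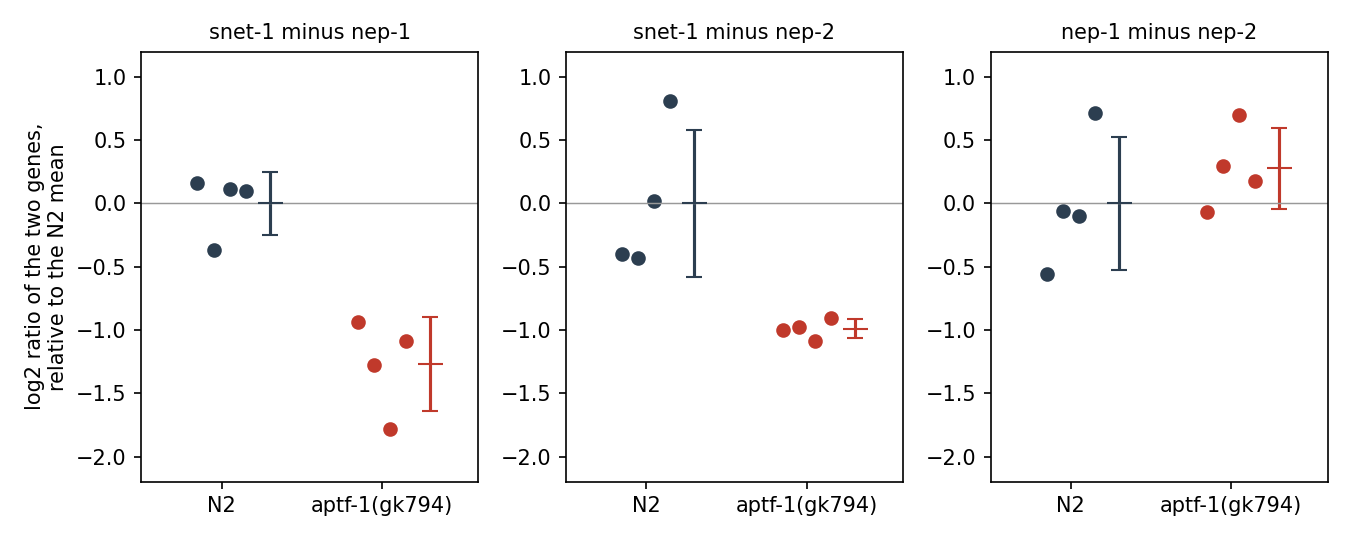
Log2 ratio of each pair of the 3 genes on the same array, set to 0 at the N2 mean, for N2 (dark) and *aptf-1(gk794)* (red). Points are arrays and bars show mean and SD of 4 arrays; the 4 mutant arrays lie close together for *snet-1* against *nep-2* (SD 0.075).

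The order of the mutant arrays was shared by *snet-1* and *nep-2*. In both, replicate 1 was highest, followed by replicates 4, 2 and 3, and in *nep-1* this order was turned around. In the wild type replicate 1 was highest in *snet-1* and *nep-2*, while replicate 2 was lowest in *snet-1* and replicate 4 was lowest in *nep-2*. With 4 arrays per genotype these orders are a description.

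*nep-1* and *nep-2* belong to 26 genes with a *nep* name in the gene table, of which 24 had a probe and 14 could be tested. Of these 14, 10 were well above background on all 8 arrays, among them *nep-11*, *nep-12*, *nep-16*, *nep-21*, *nep-22* and *nep-26*. The 10 genes with a probe that were not tested were above background on 1 array at most, and 7 of them on 0 arrays. Of the 6 family genes with a sequence name beginning F18A12, which lie side by side on chromosome II, *nep-6*, *nep-7*, *nep-8*, *nep-9* and *nep-10* were above background on 0 arrays. *nep-11*, the 6th of them, was above background on every array, with a mean of -0.36 ± 0.22 (SD, n = 4) in mutants and -0.21 ± 0.28 (SD, n = 4) in the wild type. The 3 *nep* pseudogenes with a probe, *nep-7*, *nep-14* and *nep-19*, were not among the genes tested.

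Beside *nep-1* and *nep-2*, 0 of the 12 tested family genes were called by the same rule, applied to the mean over the probes of a gene, against 0.041% of all genes. Of the 12, 1 had an unadjusted p under 0.05 in limma, as had 3.25% of all genes. The difference was below 0 in 10 and above 0 in 2, with a median of -0.040. Over all 17066 genes tested 9468 were below 0 and 7595 above, with a median of -0.019. The lowest differences were those of *nep-5* and *nep-23*. *nep-5* had a mean of -7.46 ± 0.28 (SD, n = 4) in mutants and -6.64 ± 0.43 (SD, n = 4) in the wild type, a difference of -0.83 (standard error 0.23, adjusted p = 0.9997, unadjusted p = 0.00577, all from limma). Its genotypes overlapped, as wild-type replicate 3 at -7.23 lay below mutant replicate 2 at -7.16. *nep-23* had a mean of -6.79 ± 0.54 (SD, n = 4) in mutants and -6.16 ± 0.39 (SD, n = 4) in the wild type, a difference of -0.63 (standard error 0.29, adjusted p = 0.9997). Both probes were dim, well above background on 3 of 4 mutant and 4 of 4 wild-type arrays.

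The highest differences after that of *nep-1* were those of *nep-16* and *nep-21*. *nep-16* was measured by 4 probes, with differences from 0.039 to 0.31. Its mean over the probes was -1.60 to -1.89 in mutants and -1.91 to -1.97 in the wild type. The genotypes did not overlap, but mutant replicate 4 and wild-type replicate 2 lay close together. Groups apart with the mutant higher were seen for 0.721% of all genes tested. The difference was 0.19 (standard error 0.089, adjusted p = 0.9997, unadjusted p = 0.0635, both from limma). Like *nep-1*, *nep-16* had its highest value in mutant replicate 3. *nep-21* differed by 0.0058 (standard error 0.14).

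**Figure D3:**
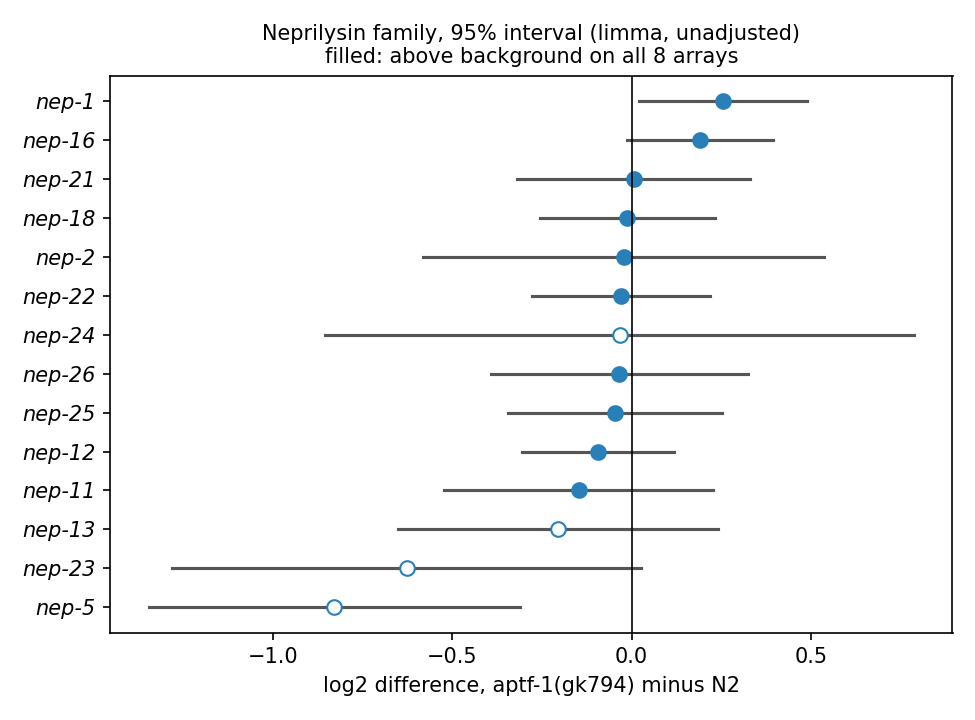
Log2 difference, *aptf-1(gk794)* minus N2, of the 14 tested neprilysin genes, with the 95% interval from limma, not adjusted for the number of genes. Filled points are genes well above background on all 8 arrays; the intervals of *nep-1*, from 0.021 to 0.49, and of *nep-5* lie to one side of 0, and 0 of the 14 genes passed after adjustment.

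The genes around the SNET-1 pathway were looked at next. Of 17 genes of odour sensing, identity and adaptation in AWC and related sensory neurons, 16 were tested and were above background on all 8 arrays. *str-2*, a receptor gene that marks 1 of the AWC neurons, was not well above background on any array. Among the 16, 0 passed limma's test or had an unadjusted p under 0.05, against 0.041% and 3.25% of all genes. The 16 genes differed by -0.18 to 0.29, with a median of 0.078 against -0.019 over all genes. They included *egl-4*, a cGMP-dependent protein kinase needed for odour adaptation (0.21, standard error 0.15), *osm-9*, a TRPV channel subunit (0.12, standard error 0.13), and *tax-4*, a subunit of the cyclic nucleotide-gated channel (-0.14, standard error 0.16). The 5 probes of *egl-4* differed by -0.15 to 0.46. Over the list, the difference was above 0 in 14 of 16 genes, against 7595 of all 17066 genes. Genes measured on the same arrays are not independent, so such sign counts, here and for the other gene lists, are only a description. As whole embryos were used, the part of AWC in these values was not tested.

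Of 11 genes for making and sensing ascaroside pheromones, 9 were tested. Of these, 0 passed limma's test or had an unadjusted p under 0.05, against 0.041% and 3.25% of all genes. Their differences ranged from -0.27 to 0.17, with a median of -0.094, and 7 of 9 were below 0, against 9468 of all 17066 genes. *daf-22*, which carries out the last step of the peroxisomal chain shortening of ascarosides, had a difference of -0.044 (standard error 0.12). *maoc-1*, an enoyl-CoA hydratase of the same pathway, was at -0.27 (standard error 0.16). The G protein genes *gpa-2* and *gpa-3*, which act in dauer pheromone responses, were at -0.088 and -0.094 (standard errors 0.13 and 0.12).

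The genes whose values ran closest to those of the members over the 8 arrays were sought among 16931 others. The measure was the root mean square of the difference between values, each centred on its gene's own mean. Nearest to *snet-1* were *fbxa-192*, named as an F-box gene, at 0.229, ZC196.8 at 0.23 and C40A11.7 at 0.237, where the median gene was at 0.56. All 3 were of low intensity, with mean levels from -8.23 to -4.70 in either genotype. *fbxa-192* (by the best of its 5 probes) and C40A11.7 were still well above background on 4 of 4 mutant and 4 of 4 wild-type arrays. *fbxa-192* differed by -1.30 and C40A11.7 by -0.67 between genotypes. ZC196.8 was well above background on only 1 of 4 mutant and 3 of 4 wild-type arrays, so the size of its difference is not given. Nearest to *nep-1* were *wsp-1*, which encodes the WASP regulator of actin, at 0.0136 and the profilin gene *pfn-2* at 0.0317, with a median of 0.264. They differed by 0.24 and 0.25 between genotypes, close to *nep-1*. Nearest to *nep-2* were Y71G10AR.4 at 0.077 and F58A6.1 at 0.0805, with a median of 0.385, and both had their lowest value on wild-type replicate 4. These nearest genes were picked out of many over only 8 arrays and are given as a description. As arrays of both genotypes entered the measure, a genotype difference like that of the member follows from the choice.

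**Figure D4:**
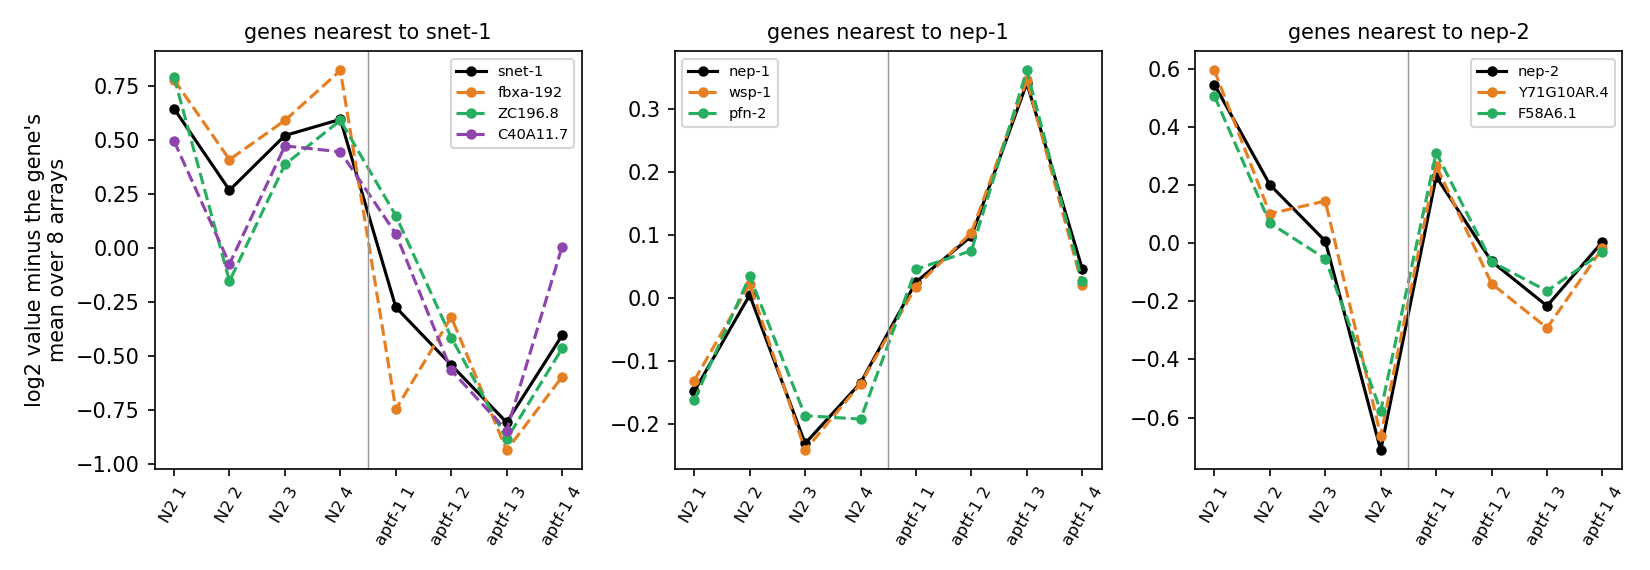
Values of *snet-1*, *nep-1* and *nep-2* (black, solid) and of the genes nearest to each (coloured, dashed) on the 8 arrays, as log2 values minus each gene's mean over the arrays. *wsp-1* follows *nep-1* with a root mean square difference of 0.0136; the lines only join points of 1 gene, and arrays have no order within a genotype.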

How the data were processed

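The authors deposited the scanner text of each array (Agilent Feature Extraction, version 10.7.3.1), with a background-corrected intensity and the median intensity of each spot and its surroundings. A deposited log2 table, for which the scale and further steps are not given in the sources used here, has a median of 8.58 in each column and orders the probes as the scanner does. It was used as an alternative.

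Intensities were scaled to the 75th percentile of each array. Of 45220 spots, 1417 control spots and all outlier-marked spots were left out. A probe entered limma (version 3.58.1, R 4.3.3) if the scanner marked it well above background on 4 or more of the 8 arrays. This left 35739 probes, or 17066 genes as means over probes (over those with no outlier-marked spot, where a gene had any), and p-values were adjusted by Benjamini-Hochberg. Names came from the WBcel235 gene table, which matched 34266 of 43603 probes. The sources give different growth temperatures, 21.5°C in the sample records. In simulated arrays with 35275 probes, 50 probes each were given a change of 1.5, 2, 3 or 4-fold. Of these, 60% of the probes given a 2-fold change were called and 6% of the probes given a 1.5-fold change, beside 6 false calls. How many probes change in the real arrays is not known, so the shares called there may differ.

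The members and lists were chosen with earlier results of these data known. Named were the members, *aptf-1*, called genes of each list, the 2 highest and 2 lowest other family genes, and the nearest genes. Genes next to a member, and genes of the other lists, were named later, by position or role. Samples are separate biological samples per the study's methods.

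Alternatives were quantile and median scaling, normexp (offset 50, on median intensities), other filters, outlier spots kept, other variance fits, array weights, slide and replicate blocks, the deposited table, the median over probes, no fold minimum, and each array left out.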

Additional observations from a re-analysis of the deposited data

Results flagged for a closer look

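In groups of 4 arrays, 1 array stood far from the other 3 for 4 of the 28 genes compared, in 5 of 56 groups. About 1 in 20 groups is expected to do so by chance. Its gap to the nearest array is given as a share of the range of the group. For *nep-21* mutant replicate 1 lay low, at -0.32 against -0.13 for the next (0.939 of the range). For *nep-23*, a dim probe, mutant replicate 1 lay low, at -7.59 against -6.61 (0.836). For C40A11.7, 1 of the genes nearest to *snet-1*, wild-type replicate 2 lay low, at -6.19 against -5.67 (0.913). For *pfn-2*, 1 of the genes nearest to *nep-1*, mutant replicate 3 lay high, at 1.32 against 1.04 (0.855), and wild-type replicate 2 lay high, at 1.00 against 0.80 (0.867). In 0 of the 6 groups of the members did an array stand apart in this sense.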

How the results depend on the processing

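The log2 difference of *snet-1* ranged from -1.09 to -0.89 over 20 alternatives, the latter with array weights. That of *nep-1* ranged from 0.18 to 0.30 and did not pass in any (adjusted p-values from limma of 0.693 to 0.99996). That of *nep-2*, -0.022, turned to 0.013 with normexp; with arrays left out it ranged from -0.26 to 0.16 and was above 0 without mutant replicate 3 (0.047), wild-type replicate 1 (0.16) and wild-type replicate 2 (0.042). Each member had 1 probe with 1 spot per array and no outlier mark. Filters, kept outlier spots, the trended fit and the median over probes thus could not change its difference. Neither could the slide and replicate blocks, which held both genotypes in equal number. As the genotypes of *snet-1* and *nep-1* did not overlap, leaving out 1 array could not turn the sign of their differences. *snet-1* was also chosen by this contrast, so its sign is only a description. The count of member probes called was 0, except for 1 with the trended and robust fit. The neprilysin, olfactory and pheromone lists had 0 calls in each of 20 alternatives. Over the whole array 18 probes were called, 11 with the slide as a block, and 4 to 14 with an array left out, the fewest without wild-type replicate 3; fewer arrays leave fewer degrees of freedom.

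Both genotypes carry replicate numbers 1 to 4. The correlations between deviations of same-numbered samples were 0.39, 0.22, -0.10 and 0.08, so they were not treated as pairs, and not every sample correlated best with its own number. A fit with a replicate block called 6 probes, and of the members 0.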
